A study of Homo sapiens with 8 samples.

Results

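The messages of 8 genes that act late in the making of the large (60S) ribosomal subunit were followed across 4 groups of BJ-HRAS fibroblast clones. The genes were EIF6, SBDS, EFL1, NMD3, LSG1, MRTO4, GNL2 and GNL3, taken as the rows of the expression table that carry these names. All 8 were found among the 58825 genes of the table, and all 8 were among the 16542 genes that passed the filter on low values. Total RNA had been sequenced from 8 libraries of BJ cells, an established skin fibroblast line, in the derivative labelled BJ-HRAS. The clones, labelled independent, were 15 and 54 for WT and 66 and 69 for the knockout (KO) of SNORA13, and they were each collected without treatment and after 7 days with (Z)-4-hydroxytamoxifen (4-OHT) at 100 nM, so every group held 2 clones and all groups shared the BJ-HRAS background. The labels do not say how 4-OHT acts in this derivative; in cells of this kind it is commonly used to switch on a fusion of HRAS with an oestrogen receptor domain.

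In the cell a new 60S subunit leaves the nucleus unable to translate, because assembly factors occupy its working sites. EIF6 sits on the face that meets the small subunit, next to the ribosomal protein RPL23, and keeps the subunits apart. SBDS, the gene mutated in most patients with Shwachman-Diamond syndrome, acts with the GTPase EFL1 to evict EIF6 in the cytosol, and the GTPase LSG1 releases the export adaptor NMD3. Upstream of these steps MRTO4 holds the place of the stalk protein RPLP0, GNL2 is a nucleolar GTPase that accompanies the particle towards export, and GNL3 (nucleostemin) is a related nucleolar GTPase abundant in dividing cells. The series concerns a snoRNA, SNORA13, in ribosome biogenesis and senescence, and the comparison asks whether messages of these factors differ between genotypes and with 4-OHT.

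With 4-OHT, 25.2% of all genes tested were called higher in WT and 28.7% in KO. Of the 8 messages, 7 rose with 4-OHT in WT and in KO clones, by 1.27-fold to 3.38-fold. SBDS was the exception: it was 1.3-fold higher with 4-OHT in WT clones and 1.18-fold lower in KO clones. Without 4-OHT no message of the 8 was called different between genotypes, against 6.32% of all genes. With 4-OHT only SBDS was, at 1.37-fold lower in KO, against 14.4% of all genes called in either direction. Nothing particular to the 8 is read from these counts between genotypes. Levels are RPKM, that is reads normalised to transcript length and sequencing depth, divided by a trimmed-mean (TMM) library factor. Differences are log2 differences from limma on log2(RPKM + 0.1), with Benjamini-Hochberg adjusted p over all genes tested and a threshold of 0.05. The p-values rest on how far the 2 clones of a group lie apart, and differences between KO and WT include anything else in which these particular clones differ.

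Libraries held 22.1 to 24.9 M reads, and the 8 messages were covered by 457 to 4628 reads each per library. SNORA13 had 4 to 7 reads in the 4 WT libraries and 0 in the 4 KO libraries, a count that allows up to 3 reads. Fibroblast markers summed to 4778 to 5487 RPKM without 4-OHT and 3291 to 3677 RPKM with it. Of the 10, 7 were called lower with 4-OHT in WT (median log2 of the list -1.99), against 3914 of all 16542 genes. In KO 7 were called lower (median -1.19), against 26.9% of all genes. VIM and S100A4 were called higher in both genotypes, and the part of these markers in the responses was not tested. Of the other markers KRT5, KRT14 and CD68 were listed at 0 in all 8 libraries, but KRT18 reached 778.6, MITF 17.5 and CD14 13.7 RPKM. Summed RPKM of 10 proliferation markers ran from 147.6 to 200.0 in untreated WT, 185.3 to 231.3 in WT with 4-OHT, 76.8 to 81.0 in untreated KO and 376.1 to 379.3 in KO with 4-OHT, and their part in the differences described here was not tested. The RNAs of the signal recognition particle took 9.18% to 10.13% of reads without 4-OHT, 9.72% in WT clone 15 with 4-OHT, and 14.77% to 16.1% in the other treated libraries. In bulk RNA, fewer cells that express a gene and less of its RNA per cell cannot be told apart.

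Because SBDS carries the difference between genotypes, its near-identical copy has to be read beside it. SBDS lies at chr7:66987677-66995601 on the minus strand of GRCh38 (GENCODE 29), and SBDSP1, a transcribed unprocessed pseudogene, at chr7:72829425-72836701 on the plus strand. Of 750 aligned columns between the SBDS coding sequence of 753 bases and an SBDSP1 transcript, 96.0% were identical, with 17 substitutions and 13 gap columns. The longest identical stretch was 80 bases, and 5 stretches of at least 50 bases covered 323 bases, so reads that lie wholly within one match both copies. The first 90 coding bases, in the first exon of either gene, differ at the 2 bases in capitals (SBDS chr7:66995328-66995417, minus strand; SBDSP1 chr7:72829656-72829745, plus strand).
SBDS: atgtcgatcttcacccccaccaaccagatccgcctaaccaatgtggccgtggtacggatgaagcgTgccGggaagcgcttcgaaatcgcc
SBDSP1: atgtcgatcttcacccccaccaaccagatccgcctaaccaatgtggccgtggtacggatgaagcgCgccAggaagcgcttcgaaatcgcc

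EIF6 is the factor that SBDS and EFL1 remove. It lies at chr20:35278911-35284985, minus strand. In untreated WT clones 15 and 54 it stood at 98.5 and 100.4 RPKM, and with 4-OHT at 180.4 and 198.3 RPKM. In KO clones 66 and 69 it stood at 90.7 and 91.4 RPKM untreated and at 189.8 and 201.5 RPKM with 4-OHT. Every treated library lay above every untreated one, the untreated KO clones lay below the untreated WT clones, and the treated genotypes overlapped. The response was 0.93 ± 0.07 (log2 ± SE, adjusted p = 7.45e-05) in WT and 1.10 ± 0.07 (adjusted p = 2.42e-05) in KO. KO minus WT was -0.13 without 4-OHT (adjusted p = 0.326) and 0.05 with it (adjusted p = 0.708). The responses differed by 0.18, with a 95% interval from -0.07 to 0.42, and this difference was not called (adjusted p = 0.341).

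SBDS, the cofactor of that release, followed another order. Untreated WT clones 15 and 54 held 85.6 and 85.65 RPKM, and the treated ones 114.0 and 108.1 RPKM. Untreated KO clones 66 and 69 held 92.4 and 98.7 RPKM, and the treated ones 81.4 and 80.45 RPKM. No 2 of the 4 groups overlapped: treated WT was highest (111.1 ± 4.18, mean ± SD, n = 2), then untreated KO (95.5 ± 4.48), then untreated WT (85.6 ± 0.0349), then treated KO (80.9 ± 0.672). Of these neighbours, untreated KO and untreated WT were not called different (log2 0.16, 95% interval 0.00 to 0.32, adjusted p = 0.204). Untreated WT and treated KO differ in genotype and treatment at the same time and were not compared.

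The SBDS response was 0.37 ± 0.07 in WT (log2 ± SE, adjusted p = 0.00317) and -0.24 ± 0.07 in KO (adjusted p = 0.0196). With 4-OHT, KO minus WT was -0.46 ± 0.07 (adjusted p = 0.00926). Subtracting the WT response from the KO response gave -0.61 ± 0.10, with a 95% interval from -0.84 to -0.39 (adjusted p = 0.0128). These calls rest on few libraries, although their direction and size held. The KO response lost its call without untreated KO clone 69 (-0.19, adjusted p = 0.131), treated KO clone 66 (-0.25, 0.0711) or treated KO clone 69 (-0.23, 0.0863). The genotype difference with 4-OHT lost it without treated WT clone 15 (-0.42, adjusted p = 0.0637) or treated KO clone 69 (-0.45, 0.0752). The difference of responses lost it without untreated KO clone 69 (-0.57, adjusted p = 0.0748), treated WT clone 15 (-0.57, 0.0553) or treated KO clone 69 (-0.60, 0.0664).

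SBDSP1, like SBDS, was called lower in KO clones with 4-OHT. Untreated WT clones held 65.7 and 65.0 RPKM and untreated KO clones 57.5 and 47.0 RPKM, while the treated clones held 81.5 and 79.6 RPKM in WT and 39.8 and 44.5 RPKM in KO. All treated KO libraries lay below all others, and treated WT lay above all others. With 4-OHT, KO minus WT was -0.93 ± 0.11 (log2 ± SE, adjusted p = 0.00501), and untreated it was -0.33 ± 0.11 (adjusted p = 0.106). The SBDSP1 responses were 0.30 in WT (adjusted p = 0.0481) and -0.30 in KO (adjusted p = 0.0414). With library size scaling only (0.161) or signal recognition particle RNA left out (0.051) the WT response lost its call. In KO the call was lost when only the libraries compared were fitted (adjusted p = 0.0563). Both responses were no longer called with clone as a replicate block (adjusted p = 0.075 and 0.067) or without the filter (0.113 and 0.0969). Without 1 library their sizes ran from 0.28 to 0.32 and from -0.45 to -0.16; the WT call was lost without any of the 4 WT libraries or either treated KO library (adjusted p up to 0.153), and the KO call without untreated KO clone 66 or any treated library (up to 0.248). Their difference was -0.60 (adjusted p = 0.0549), and was called by limma-voom on recovered reads (adjusted p = 0.0275).

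How the authors' counting shared reads between the copies is not given in the sources used here. SBDSP1 held 21.5% to 22.7% of the summed reads of both copies in the 4 WT libraries and 15.4% to 19.3% in the 4 KO libraries. With the reads of both copies summed, a check chosen after seeing the data, the SBDS response was 0.36 in WT (adjusted p = 0.00271) and -0.25 in KO (adjusted p = 0.0113). The summed difference of responses was again -0.61 (adjusted p = 0.0103). A second gene also meets SBDS: TYW1, on the opposite strand, overlaps its start by 429 bases, and whether counting used strand is not given. TYW1 was lower in KO with 4-OHT by -0.40 on the log2 scale (adjusted p = 0.0451). That call was lost without the filter (adjusted p = 0.114), with library size scaling only (0.0513) and when only the libraries compared were fitted (0.0832). Without any treated library or either untreated KO library it was lost too, with values from -0.51 to -0.28.

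**Figure D1:**
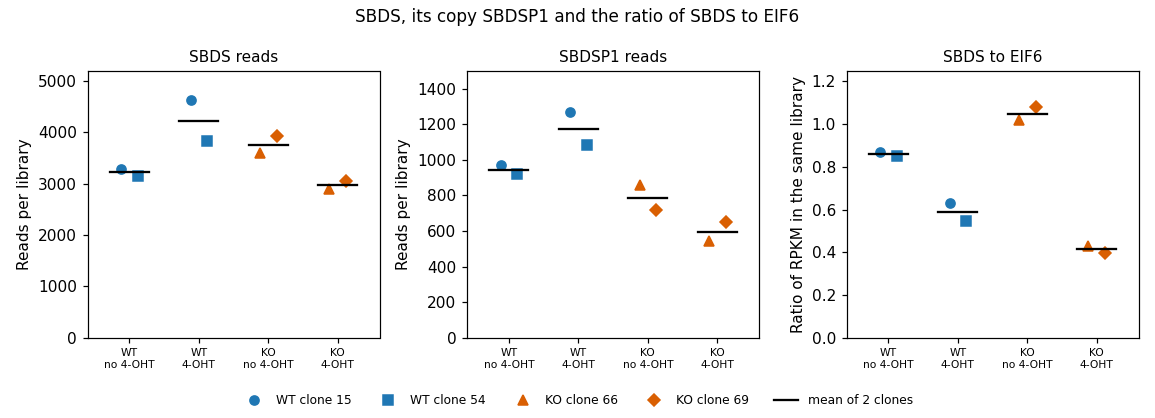
Reads per library of SBDS (left) and SBDSP1 (middle), and the ratio of SBDS to EIF6 RPKM in the same library (right), for the 4 groups; symbols are clones and lines are means of 2 clones. The mean of treated WT is highest and that of treated KO lowest for either copy; for SBDS untreated KO clone 69 (3927 reads) lies above treated WT clone 54 (3831 reads). The ratio is lowest in treated KO (0.399 and 0.429).

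EFL1, the GTPase that works with SBDS, tracked EIF6 and not SBDS. It lies at chr15:82130230-82262763, minus strand. WT clones 15 and 54 held 9.23 and 8.73 RPKM untreated and 16.7 and 17.6 RPKM with 4-OHT. KO clones 66 and 69 held 8.59 and 9.35 RPKM untreated and 16.6 and 17.8 RPKM with 4-OHT. Treated libraries lay above untreated ones and the genotypes overlapped in either condition. The response was 0.93 ± 0.08 in WT (log2 ± SE, adjusted p = 0.000133) and 0.93 ± 0.08 in KO (adjusted p = 8.8e-05). The difference between the responses was 0.01, with a 95% interval from -0.27 to 0.29 (adjusted p = 0.975).

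Ratios within a library set these members of the EIF6 release step side by side. The ratio of SBDS to EIF6 RPKM was 0.869 and 0.853 in untreated WT clones and 0.632 and 0.545 with 4-OHT. In KO clones it was 1.02 and 1.08 untreated and 0.429 and 0.399 with 4-OHT. The groups did not overlap: the mean went from 0.861 to 0.589 in WT and from 1.05 to 0.414 in KO. The ratio itself was not tested, and the tests of each gene alone do not cover it. EFL1 to EIF6 stayed between 0.087 and 0.102 in all 8 libraries, whereas SBDS to EFL1 ran from 4.51 in a treated KO clone to 10.7 in an untreated one. A ratio of messages shows unequal change and says nothing about protein.

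NMD3, the export adaptor, and LSG1, the GTPase that releases it, both rose with 4-OHT. NMD3 (chr3:161104696-161253532, plus strand) held 38.4 and 41.9 RPKM in untreated WT clones 15 and 54, and 60.1 and 49.4 RPKM with 4-OHT. In KO clones 66 and 69 it held 34.6 and 39.2 RPKM untreated, and 50.6 and 43.4 RPKM with 4-OHT. Treated libraries lay above the untreated ones of their genotype, and the genotypes overlapped. The responses were 0.44 ± 0.12 in WT (log2 ± SE, adjusted p = 0.022) and 0.35 ± 0.12 in KO (adjusted p = 0.0481), the largest adjusted p of the 7 rising messages in either genotype. The KO call was lost with clone as a replicate block (adjusted p = 0.0765). In WT the call was lost without untreated clone 15 (0.38, adjusted p = 0.0856) or treated clone 15 (0.30, 0.123). In KO it was lost without untreated clone 66 (0.26, adjusted p = 0.232), untreated clone 69 (0.44, 0.0649) or treated clone 66 (0.24, 0.24). The table scales NMD3 to a listed transcript of only 547 bases, so its level per length is not comparable with those of the other genes.

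LSG1 (chr3:194640788-194672477, minus strand) held 11.97 and 12.76 RPKM in untreated WT clones and 21.4 and 21.2 RPKM with 4-OHT. KO clones held 10.4 and 11.1 RPKM untreated and 19.5 and 18.6 RPKM with 4-OHT. The 4 groups did not overlap, with treated WT highest and untreated KO lowest. The response was 0.78 ± 0.08 in WT (log2 ± SE, adjusted p = 0.000185) and 0.82 ± 0.08 in KO (adjusted p = 9.97e-05). The genotype differences of -0.20 untreated (adjusted p = 0.154) and -0.16 with 4-OHT (adjusted p = 0.206) were not called.

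Among the nuclear factors MRTO4 moved most. It lies at chr1:19251539-19260128, plus strand. WT clones 15 and 54 held 21.9 and 26.2 RPKM untreated and 57.3 and 60.6 RPKM with 4-OHT, and KO clones 66 and 69 held 17.9 and 19.6 RPKM untreated and 64.9 and 61.9 RPKM with 4-OHT. The KO clones lay below WT without 4-OHT and above WT with it. The response was 1.29 ± 0.10 in WT (log2 ± SE, adjusted p = 6.8e-05) and 1.76 ± 0.10 in KO (adjusted p = 1.47e-05). The untreated genotype difference of -0.36 (adjusted p = 0.0805) and the difference of responses of 0.46 (95% interval 0.13 to 0.80, adjusted p = 0.0988) were not called. Without untreated WT clone 15, the lower of the WT pair, they became -0.49 (adjusted p = 0.0218) and 0.59 (adjusted p = 0.0244) and were called.

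The GTPases GNL2 and GNL3 rose with 4-OHT in both genotypes. GNL2 (chr1:37566816-37595935, minus strand) held 23.6 and 26.6 RPKM in untreated WT, 54.8 and 55.1 RPKM in treated WT, 23.3 and 22.4 RPKM in untreated KO and 50.9 and 52.6 RPKM in treated KO. Its response was 1.13 ± 0.08 in WT (log2 ± SE, adjusted p = 4.21e-05) and 1.18 ± 0.08 in KO (adjusted p = 2.35e-05), and the responses differed by 0.05 (95% interval -0.21 to 0.30). GNL3 (chr3:52681156-52694492, plus strand) held 30.1 and 30.6 RPKM in untreated WT, 43.3 and 41.2 RPKM in treated WT, 31.0 and 32.9 RPKM in untreated KO and 44.6 and 44.8 RPKM in treated KO. Its response was 0.48 ± 0.07 in either genotype (log2 ± SE, adjusted p = 0.000981 in WT and 0.000721 in KO), and the difference was 0.00 (95% interval -0.22 to 0.23). Treated libraries lay above untreated ones for either gene. GNL3 shares 4762 bases with PBRM1 on the opposite strand, so its counts are less certain where strand was not used. The snoRNAs in GNL3 introns, SNORD19, SNORD19B, SNORD19C and SNORD69, had at most 8 reads in any library and were not tested.

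For the other 7 messages copies were sought only by name, as the gene symbol followed by P and a number. Such rows were found for EFL1, NMD3 and GNL2, and copies under other names were not sought. Rows named as their pseudogenes held at most 19 reads in any library (EFL1P1), with at most 6 for NMD3P1, 3 for NMD3P2, 2 for EFL1P2 and 0 for GNL2P1. Overlaps with tested neighbours were, beside those of SBDS and GNL3, 1133 bases of EIF6 with AL121753.1 on the same strand, 4614 bases of LSG1 with the antisense gene AC046143.1, and 689 bases of NMD3 with B3GALNT1 on the opposite strand. MRTO4 overlaps EMC1 by 14 bases and GNL2 overlaps DNALI1 by 42 bases, both on the opposite strand. What these overlaps add to or take from the counts was not tested.

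**Figure D2:**
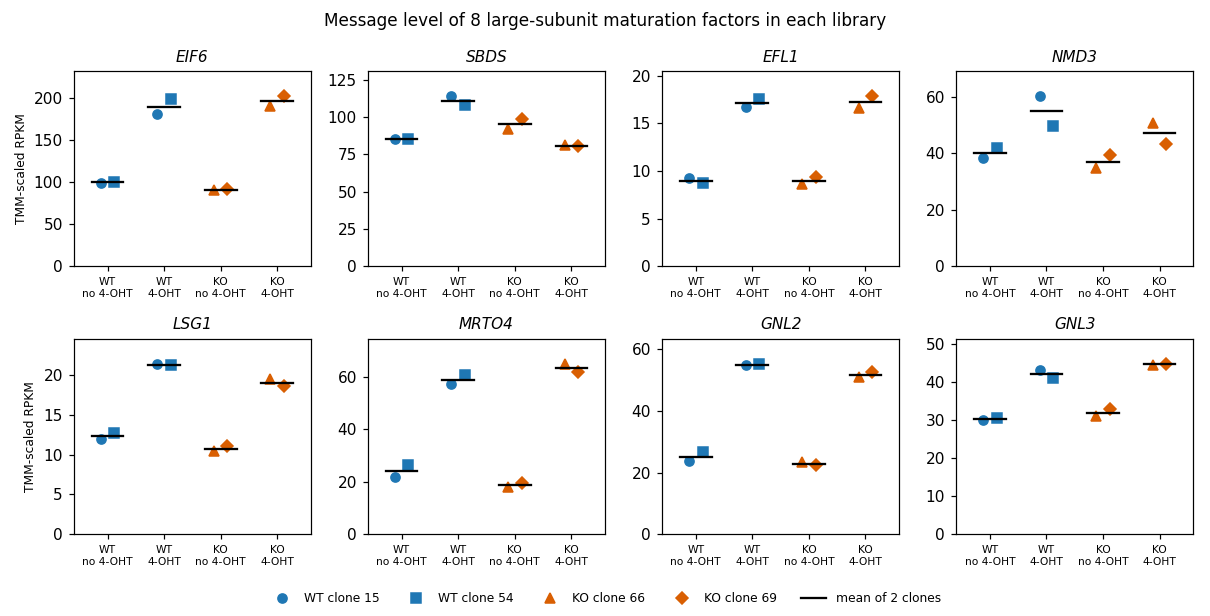
TMM-scaled RPKM of each of the 8 messages in each library, on axes that start at 0; symbols are clones and lines are means of 2 clones. Treated libraries lie above untreated ones of the same genotype in all panels except SBDS, where treated KO clones (80.45 and 81.4) lie below untreated ones (92.4 and 98.7).

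Counted over the comparisons, all 8 messages were called higher with 4-OHT in WT, where 25.2% of all genes tested were called higher. In KO 7 of 8 were called higher, against 28.7% of all genes, and SBDS was the 1 called lower, against 26.9%. The median response of the 8 was 0.85 in WT and 0.88 in KO on the log2 scale, while the median over all genes was 0.00 in either. Without 4-OHT none of the 8 was called between genotypes, against 6.32% of all genes (limma), and limma-voom called none either. At an unadjusted p under 0.05 LSG1 and MRTO4 passed, both lower in KO. The share of all genes passing that looser threshold was not counted, so nothing is read from it. With 4-OHT SBDS alone was called lower, against 7.65% of all genes, and in the difference of responses SBDS alone was called negative, against 3.08%. With 1 of 8 messages called, nothing particular to the 8 is read from those last counts. The comparisons share libraries, so their counts are not independent.

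**Figure D3:**
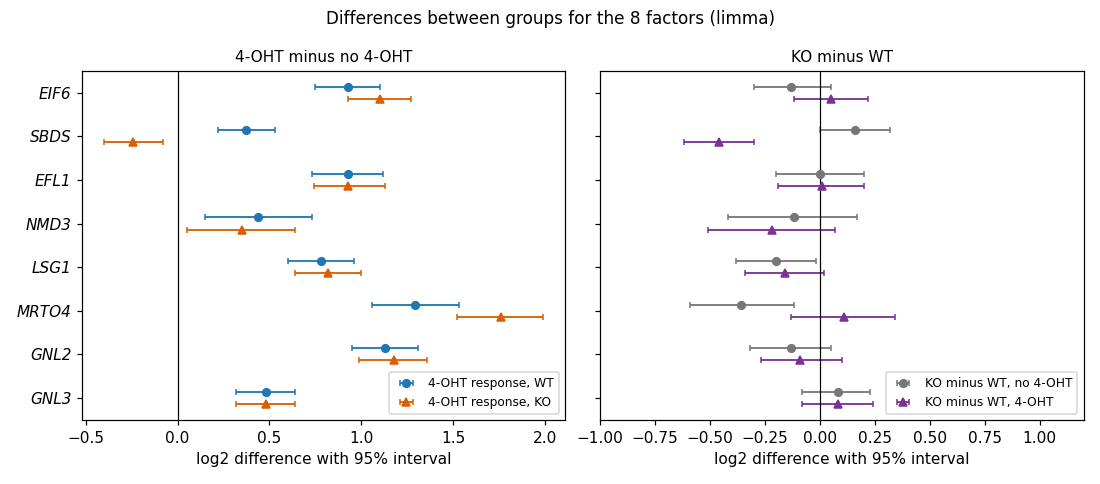
Log2 differences of the 8 messages with 95% intervals, for the 4-OHT response in WT and KO (left) and for KO minus WT without and with 4-OHT (right). The intervals of the responses lie above 0 except for SBDS in KO (-0.24), and SBDS with 4-OHT (-0.46) lies farthest from 0 on the right.

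Per length of the listed transcript, in untreated WT clones, EIF6 (99.4 ± 1.29 RPKM, mean ± SD, n = 2) stood above SBDS (85.6 ± 0.0349). That order depends on the listed lengths, 932 bases for EIF6 and 1613 for SBDS. In reads, SBDS (3290 and 3155) stood above EIF6 (2188 and 2136) in these clones. NMD3, scaled to a listed transcript of 547 bases, is left out of the order. GNL3 (30.3 ± 0.361), GNL2 (25.1 ± 2.11) and MRTO4 (24.1 ± 3.09) followed, and GNL2 and MRTO4 did not differ beyond their spread. LSG1 (12.4 ± 0.565) and EFL1 (8.98 ± 0.354) were the lowest. Across the 8 libraries the closest pair in pattern was EIF6 and EFL1, with a root mean square difference of 0.075 between log2 values centred on each gene's mean. The farthest pair was SBDS and MRTO4, at 0.78. These distances are descriptions over 8 libraries that share 4 clones.

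By the same distance, over all genes tested, the genes nearest to EIF6 were PCMT1 (0.056) and XKR8 (0.06), and the nearest to EFL1 were CCT3 (0.055) and RPL22L1 (0.057). SBDS lay nearest to UBR3 and TMEM245 (both 0.035) and not to any of the other 7 messages, the closest of which was NMD3 at 0.223. GNL2 lay nearest to PRELID1 (0.024), LSG1 to RTCB (0.034), GNL3 to WDCP (0.032), NMD3 to ZNF438 (0.059) and MRTO4 to ENTPD6 (0.078).

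Since 7 messages moved together, their promoters were read for shared motifs. RefSeq promoters (GRCh38.p14, the 250 bases before the start, either strand) were found for all 8 genes, in 11 windows because some genes have several listed starts. The E-box CACGTG was in none of the 11 windows and in 6.3% of 35116 windows over all genes. The GC box GGGCGG or CCGCCC was in 5 of the 11 and in 42.6% of all. The ETS core CCGGAAG or CTTCCGG was in 5 of the 11, which belong to 3 genes, EIF6, EFL1 and LSG1, and in 8.5% of all windows; windows of 1 gene overlap and hold the same core. The 30 bases around it, on the gene's strand with the core in capitals, lie at chr20:35284801-35284830 for EIF6, chr15:82262760-82262789 for EFL1 and chr3:194672221-194672250 for LSG1, all on the minus strand. The core begins 46 or 101 bases before the 2 listed starts of EIF6, 43 or 249 bases before the 2 of EFL1, and 47 bases before the start of LSG1. A match of letters is not a site of binding.
EIF6: cgccgggctctcCCGGAAGtctccctggac
EFL1: actcggcgccggCTTCCGGcggcgtcagag
LSG1: cgcttatcgtcaCTTCCGGggatcgaactg

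Other genes of the pathway were read from 3 lists. Of 15 genes of nuclear 60S remodelling, 11 rose with 4-OHT in WT (median log2 of the list 0.62) and 11 in KO (median 0.68), against 25.2% and 28.7% of all genes; none fell. In WT the largest rises were those of TEX10 (1.32), RPF2 (1.16), which brings the 5S particle to the subunit, and its partner RRS1 (1.09). In KO they were RRS1 (1.90), TEX10 (1.21) and NLE1 (1.19), a target of the remodelling AAA protein MDN1. Of 14 genes of export and cytosolic maturation, 11 rose in WT (median 0.64) and 11 in KO (median 0.78), against the same shares of all genes, led by PA2G4, a factor at the exit tunnel (0.97 and 1.24), and RAN, the GTPase of nuclear transport (0.96 and 1.24). CINP (0.84) was the next in WT and ZNF593 (1.00) in KO. XPO1, the export receptor that NMD3 binds, rose in KO (0.73, adjusted p = 0.000683), and its value in WT was 0.19 (adjusted p = 0.157). The difference of its responses was 0.54 (adjusted p = 0.0668). It was called with clone as a replicate block (adjusted p = 0.0451) and by limma-voom on recovered reads (adjusted p = 0.0251). Without untreated WT clone 15 this difference was 0.68.

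The third list held 9 ribosomal proteins and was drawn up for the sites where these factors bind. RACK1 is a protein of the small subunit and does not belong to those sites. Of the 9, RPL24 (0.36) and RACK1 (0.27) rose with 4-OHT in WT and RACK1 (0.24) in KO, and the medians were 0.14 and -0.04. Those counts are near or below the 25.2% and 28.7% of all genes called higher, and nothing is read from them. RACK1 lost its WT call without treated WT clone 54 (adjusted p = 0.0567), and its KO call without untreated KO clones 66 (0.128) or 69 (0.073) or treated KO clone 69 (0.131). RPL24 lost its call without treated WT clone 15 (0.33). When only the libraries compared were fitted, RPL24 (adjusted p = 0.0648) and RACK1 (0.0725) both lost their WT calls. With library size scaling only, RACK1 lost its call in WT (adjusted p = 0.08) and in KO (0.085). RPL23, the protein beside which EIF6 binds, held 1716 and 1346 RPKM in untreated WT, 1679 and 1670 in treated WT, 1951 and 2089 in untreated KO and 1725 and 1731 in treated KO. Its untreated KO minus WT difference was 0.41 (adjusted p = 0.0762). It was called without untreated WT clone 15 (0.59, adjusted p = 0.00619) and by limma-voom on recovered reads (adjusted p = 0.0258).

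**Figure D4:**
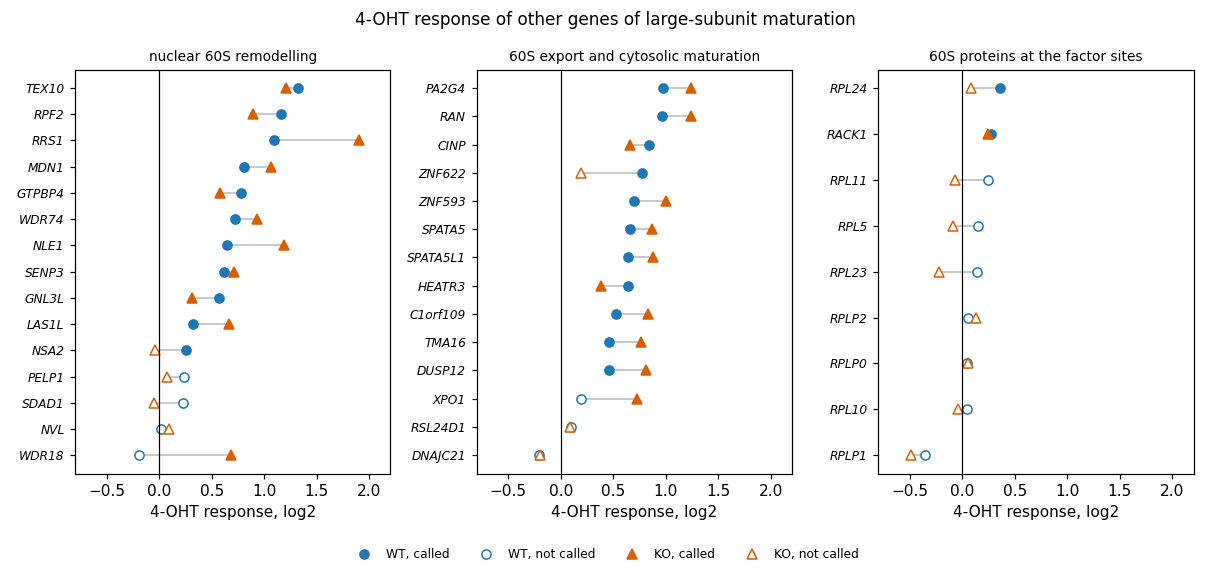
4-OHT response (log2 difference) of the genes of 3 lists in WT (circles) and KO (triangles). Filled symbols were called. RACK1, in the third list, is a protein of the small subunit. Filled symbols all lie above 0, and WDR18 (-0.19 in WT, 0.68 in KO) and RRS1 (1.09 in WT, 1.90 in KO) show the widest gaps between genotypes in the nuclear list.

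Between genotypes, without 4-OHT, C1orf109 alone of the 38 genes was called, against 6.32% of all genes. It was lower in KO (-0.64, adjusted p = 0.0253). Its call was lost without the filter (adjusted p = 0.0718) and when only the libraries compared were fitted (0.102). The call was also lost without untreated WT clone 54 or any KO library, with values from -0.77 to -0.52. With 4-OHT, 8 of the 38 genes were called, against 14.4% of all genes. RRS1 (0.64), DUSP12 (0.61), WDR74 (0.36), RPLP0 (0.34) and TMA16 (0.30) were higher in KO, and ZNF622 (-0.63), SDAD1 (-0.33) and CINP (-0.31) were lower. None of these 8 calls was made without treated WT clone 15, nor without treated KO clone 69. RPLP0 is the stalk protein that takes the place of MRTO4, and ZNF622 is a cytosolic 60S factor related to yeast Rei1. In the difference of responses RRS1 alone of the 38 was called (0.81 ± 0.16, log2 ± SE, adjusted p = 0.029). Over all 16542 genes 1230 were called there, so nothing particular to the 38 is read from this count. RRS1 stood at 7.27 and 9.24 RPKM in untreated WT, 17.3 and 17.8 in treated WT, 7.12 and 7.42 in untreated KO and 26.7 and 28.2 in treated KO. The RRS1 call was lost without the filter (0.81, adjusted p = 0.0937), and without any treated library or either untreated KO library. Over the fits that left out 1 library its values ran from 0.64 to 0.98.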

How the data were processed

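The authors deposited 1 table with a value per gene and library; the unit is RPKM, despite a name that points to counts. GRCh38, STAR, featureCounts and edgeR are listed in the submitters' processing notes, without versions, roles or strand setting. Column names hold clone numbers, and those with a minus sign were taken as untreated, a reading that the labels do not state. Multiplying the deposited RPKM by listed length and library total gave whole reads for 100.0% of values, within 0.1 read, and these reads gave the depth (1 read in 1 kb is worth 0.0401 to 0.0453 RPKM), TMM factors (0.9402 to 1.035) and the filter: at least 2 libraries with 10 reads at the median size (CPM 0.425) and 15 reads in total. After 45 duplicate rows were left out, 58552 of 58825 gene IDs matched GENCODE 29 with version numbers ignored (47420 with them).

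In R 4.3.3, limma 3.58.1 (trend, robust) fitted 4 group means over all 8 libraries, with 4 residual degrees of freedom, on log2(RPKM + 0.1), which understates the change of low genes. The script was tested on simulated data. Clone numbers pair the libraries by label: deviations of the same clone correlated at 0.309 in WT and 0.00535 in KO over 16542 genes. Alternatives covered the pseudocount, filter, scaling, clone block, libraries fitted, test and each library left out. Genes named were the 8, up to 3 called genes per list and comparison, and the nearest patterns; other genes were named after their values were seen, and some marker results are not reported here. The members and lists were chosen with earlier results of these data known.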

Additional observations from a re-analysis of the deposited data

Results flagged for a closer look

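The responses of SBDS to 4-OHT differed between the genotypes by the test of that difference: -0.61 on the log2 scale, KO response minus WT response (limma, adjusted p = 0.0128), with a rise in both WT clones and a fall in both KO clones. RRS1, the partner of RPF2 in bringing the 5S particle to the large subunit, also responded differently, at 0.81 (adjusted p = 0.029), with a rise in all 4 clones that was greater in the KO clones. Leaving out 1 library ended the SBDS call in 3 of 8 fits and the RRS1 call in 6 of 8, with SBDS between -0.66 and -0.57. The RRS1 call was also lost without the filter on low values (adjusted p = 0.0937).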

How the results depend on the processing

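Of 637 alternative values of the 8 messages, 599 kept direction and side of the threshold, 19 lost their call, 2 gained one and 17 changed sign. Without the fits that leave out a library, 311 of 317 were kept, and the 6 lost calls were all of NMD3: its responses in WT and KO without the filter (adjusted p = 0.0631 and 0.119) and with library size scaling only (0.0635 and 0.115), and in KO also with pseudocount 1 (0.0501) and the clone as a replicate block (0.0765). The replicate block changed no other call of the 8 (8, 7, 0, 1 and 1 called in the 5 comparisons). Changes of sign were all in uncalled values near 0 when 1 library was left out: EFL1 from -0.06 to 0.06 untreated, -0.05 to 0.06 with 4-OHT and -0.05 to 0.07 in the difference of responses; EIF6 from -0.02 to 0.12 with 4-OHT; and, in the difference of responses, NMD3 from -0.24 to 0.04, LSG1 from -0.01 to 0.09, GNL2 from -0.04 to 0.13 and GNL3 from -0.04 to 0.05. Genes called between untreated genotypes were 1046; they were 245 without the filter, 116 when only those libraries were fitted, 1761 with limma-voom, and 5 to 1833 with 1 library left out. With 4-OHT they were 2375, but 994 without the filter and 197 to 2962 with 1 library left out. In the difference of responses they were 1230, but 437 without the filter and 280 to 2089 with 1 left out. Of the 8 messages, those called with 1 library left out were 7 to 8 (WT response), 6 to 8 (KO response), 0 to 1 (untreated), 0 to 1 (4-OHT) and 0 to 2 (difference of responses). The cause was not tested. Tests on recovered reads were limited to limma-voom, and the quasi-likelihood and DESeq2 alternatives were not run. Each message had at least 457 reads in every library.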
